A study of Mus musculus with 6 samples.

Results

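The retinoic acid receptors Rara, Rarb and Rarg, the retinoid X receptors Rxra, Rxrb and Rxrg, and the corepressors Ncor1 and Nrip1 were taken by name from the gene count tables of BMSCs, the adherent cells grown from mouse bone marrow. All 8 genes were found among the 25722 listed genes. RNA sequencing covered 3 control libraries, from wild-type C57BL/6 BMSCs given the solvent DMSO, and 3 libraries from the same kind of cells given all-trans retinoic acid (RA). All cultures shared a low-glucose medium with serum and a ROCK inhibitor, and low oxygen. The sample labels give 1 μM RA for 48 h, while the study's methods give a lower dose and a shorter time, and the labels speak of fewer biological replicates than there are libraries. Nothing in the labels ties a library to a separate mouse or culture, so the p-values below measure the spread between these libraries, which may be technical in part.

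RARs are nuclear receptors that bind RA and act as heterodimers with RXRs on response elements made of repeated half-sites. Without ligand, the heterodimer holds corepressors such as NCoR1 together with histone deacetylases, and ligand exchanges them for coactivators. RIP140, the product of Nrip1, differs in that it is recruited to nuclear receptors by ligand and still represses. Retinoid signalling is known in bone and marrow for its part in skeletal patterning and in the maturation of myeloid cells, and Rarb is a classical direct target of the receptors themselves.

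Promoters were searched for the receptors' own response element because several of these genes are known RA targets. The search covered the 17 RefSeq promoters of the 8 genes (GRCm38.p6, from 250 bases before to 50 bases after each start). The element sought, called DR5, is a pair of half-sites on the same strand 5 bases apart, each half-site being NGNTCA with A or G at the former N and G or T at the latter. Both strands were searched, and the repeats with 1 and 2 bases between the half-sites (DR1 and DR2) were sought as well. The promoter of Rarb held a DR5, from 53 to 36 bases before the start, and no other member's promoter held a DR5, DR1 or DR2. The promoter of Cyp26a1, an RA-degrading enzyme shown for comparison, held a DR5 on the opposite strand from 32 to 15 bases before its start. The windows below run 5′ to 3′ on the gene's strand with the half-sites in capitals, the Rarb window at chr14:16575506-16575535 on the minus strand and the Cyp26a1 window at chr19:37697770-37697799 on the plus strand.
Rarb: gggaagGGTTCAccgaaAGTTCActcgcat
Cyp26a1: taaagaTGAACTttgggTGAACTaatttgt
Of 32817 RefSeq promoters of this length, 32 (0.0975%) held a DR5, 0.222% a DR1 and 0.268% a DR2. A match of letters describes the promoter and is no measure of binding.

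The libraries held between 14737636 and 18511905 counts, so that 3 counts stood for between 0.160 and 0.210 CPM in a library, CPM being counts relative to library totals scaled by the TMM method. A principal component analysis of the 1000 genes of highest variance put 57.2% of that variance on a first axis. This axis set control 2, RA 1 and RA 2 (library set 1) apart from control 1, control 3 and RA 3 (library set 2), and values within each set are therefore given below for the members. No batch or date in the labels accounts for the sets, and a single control in set 1 and a single RA library in set 2 leave no spread there. Because the sets were drawn from these same counts, p-values with the set as a covariate may be too small. The labelled cell type was checked against markers. The 14 stromal markers summed to between 2917 and 5130 CPM in the controls and between 2457 and 4291 CPM after RA, among them the collagen gene Col1a1 (means of 1053 CPM in the controls and 703 CPM after RA). Below the filter were 2 of the 14, with mean levels of Thy1 at 0.331 CPM in the controls and 0.278 CPM after RA, and of Nt5e at 0.602 and 0.600 CPM. The 14 macrophage markers summed to between 20840 and 22961 CPM in the controls and between 20623 and 21727 CPM after RA, led by Lyz2 and Adgre1. The 5 endothelial markers stayed between 6.81 and 17.2 CPM in sum, and the lymphoid markers, 3 of 6 of which were listed, did not pass 0.160 CPM. None of the markers was called in the main fit. The covariate of library set gave a call for 1.74% of all genes, among them no macrophage marker and 2 stromal markers. The leptin receptor gene Lepr had means of 0.483 and 5.01 CPM (edgeR adjusted p = 0.00644). It held 7 to 9 counts in the controls and was tested only through the RA libraries. The stem cell antigen gene Ly6a had means of 36.1 and 19.3 CPM (edgeR adjusted p = 0.0152). With DESeq2 and no covariate the adjusted p was 0.000142 for Lepr and 2.93e-06 for Ly6a. The part of these markers in the results below was not tested. Macrophage RNA was abundant in both groups, and which cells of the culture the receptor RNA came from was not tested. In such bulk RNA, fewer cells of a type and less RNA per cell cannot be told apart.

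Rarb was the member that differed most between the groups. It was close to silent in control BMSCs and present in every RA library, beside smaller differences in Rara, which was lower after RA, and Nrip1, which was higher. The RXRs, Rarg and Ncor1 had overlapping groups. No member was called by the main test (edgeR's quasi-likelihood test over all 13842 genes passing its filter, with a gene called when its p, adjusted by Benjamini-Hochberg, was under 0.05), for which 0.0433% of all genes tested were called. At an unadjusted p under 0.05, Rarb and Nrip1 stood higher and Rara lower, 3 of the 7 tested members beside 5.25% of all genes. With the library set as a covariate 1 of the 7 tested members was called (Rarb, against 1.74% of all genes), and with DESeq2 2 were called (Rarb and Nrip1, against 1.01%). In 3 of the 7 members all RA libraries lay on 1 side of all controls (Rarb and Nrip1 above, Rara below), a separation seen in 12.6% of all genes. Rarb passed the filter on low counts only through the RA libraries, so its place above the controls was largely set by the filter, and these counts of members are a description only. The plot of CPM by library shows the members in each library.

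**Figure D1:**
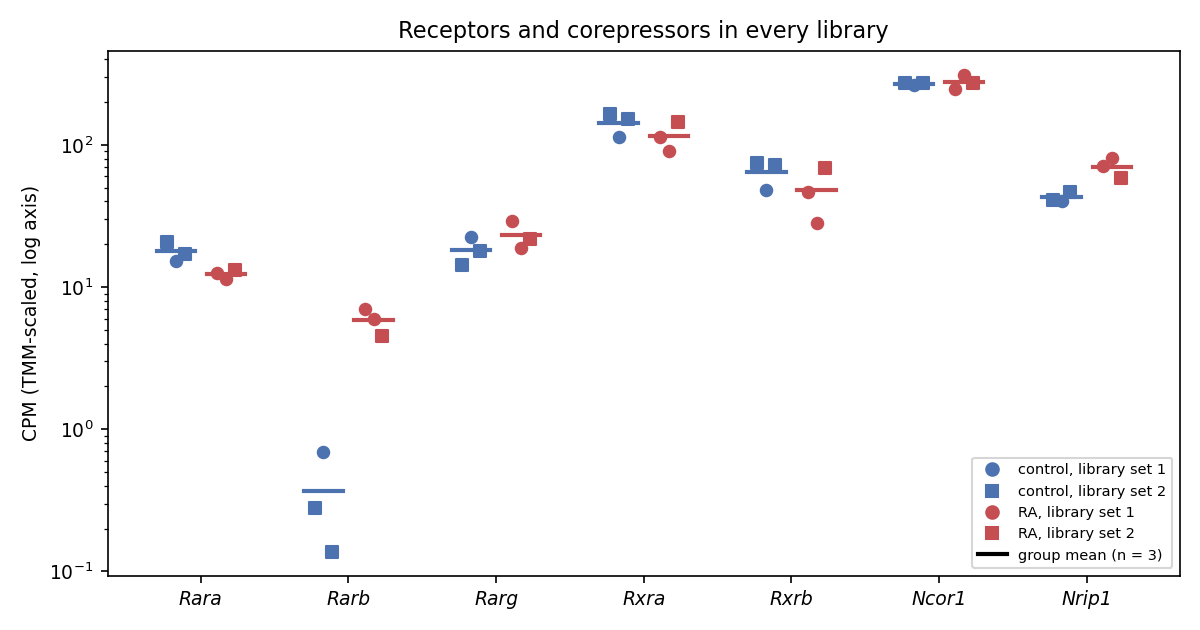
CPM (log axis) of the 7 tested members in the 3 control (blue) and 3 RA (red) libraries, circles for library set 1, squares for library set 2 and bars for group means. Rarb has at most 0.691 CPM in a control and at least 4.50 CPM in an RA library, while Rarg, Rxra, Rxrb and Ncor1 overlap between the groups.

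Among the ligand-binding RARs, Rarb (ENSMUSG00000017491, chromosome 14 of GRCm38 from 16430839 to 16819156, minus strand) encodes the subtype best known as an RA-induced gene. Its counts were 4, 13 and 2 in control libraries 1 to 3 and 127, 94 and 66 in RA libraries 1 to 3, or 0.280, 0.691 and 0.138 CPM against 7.06, 5.96 and 4.50 CPM. The groups lay far apart, with control 2 the highest control and RA 3 the lowest RA library. The mean went from 0.370 ± 0.288 CPM to 5.84 ± 1.28 CPM (SD, n = 3), a log2 fold change of 3.90 with a standard error of 0.51 and a 95% interval from 2.68 to 5.12. The adjusted p was 0.156 with edgeR's quasi-likelihood test, 0.00387 in the same test once the library set was a covariate (log2 fold change 3.70), and 1.46e-09 with DESeq2. Summed over libraries, 287 counts after RA against 19 in the controls gave a ratio of 14.9 after scaling to the library totals, with an exact 95% interval from 9.34 to 25.0 that covers counting error only. Within library set 1 the log2 fold change of Rarb was 3.02 and within set 2 it was 3.83. Without control 2 it was 4.77 (edgeR adjusted p = 0.0691), and over all the alternatives tested the adjusted p ran from 2.06e-10 to 0.695.

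At its 3′ end Rarb lies over the exons of Top2b, a DNA topoisomerase gene on the opposite strand, for 1793 of 5265 exonic bases (34.1%). The strand setting of the counting is not given in the sources used here, so reads of the shared part cannot be assigned to a strand. Top2b stood at 117, 117 and 123 CPM in controls 1 to 3 and at 123, 138 and 132 CPM in RA libraries 1 to 3. Those values overlap (log2 fold change 0.14, edgeR adjusted p = 0.801). The same controls held between 1670 and 2191 counts of Top2b and between 2 and 13 counts of Rarb.

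Rara (ENSMUSG00000037992, chromosome 11 from 98927818 to 98974942, plus strand) encodes the widely expressed RAR subtype. It stood at 20.9, 15.4 and 17.2 CPM in controls 1 to 3 and at 12.6, 11.5 and 13.2 CPM in RA libraries 1 to 3. Every RA library lay below every control, by a small margin between RA 3 and control 2. The means were 17.8 ± 2.80 and 12.4 ± 0.857 CPM (SD, n = 3), a log2 fold change of -0.52 (standard error 0.17, 95% interval -0.93 to -0.12). The adjusted p was 0.795 with edgeR, 0.211 under the set covariate and 0.450 with DESeq2, so the difference did not pass correction by any of the 3. The value was -0.35 within set 1 and -0.52 within set 2.

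Rarg (ENSMUSG00000001288, chromosome 15 from 102234938 to 102257517, minus strand) encodes the subtype known from skin and cartilage. Its values were 14.4, 22.4 and 17.9 CPM in the controls and 29.1, 19.0 and 21.7 CPM after RA. The groups overlapped, with control 2 above RA 2 and RA 3. The log2 fold change was 0.35 (standard error 0.23, 95% interval -0.21 to 0.91, edgeR adjusted p = 0.795), with 0.065 within set 1 and 0.43 within set 2.

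Rxra (ENSMUSG00000015846, chromosome 2 from 27676440 to 27762957, plus strand) encodes the common heterodimer partner. It stood at 166, 113 and 152 CPM in the controls and at 113, 90.1 and 144 CPM after RA. The 3 libraries of set 1 held the 3 lowest values whatever their treatment. The log2 fold change was -0.31 (standard error 0.22, 95% interval -0.83 to 0.21, edgeR adjusted p = 0.795), and it was nearer to 0 within the sets, at -0.17 and -0.14.

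Rxrb (ENSMUSG00000039656, chromosome 17 from 34031812 to 34038399, plus strand) encodes a further RXR of broad expression. Its values were 74.4, 48.3 and 72.3 CPM in the controls and 46.5, 28.2 and 69.2 CPM after RA. It followed the library sets as Rxra did, with RA 3 close to controls 1 and 3. The log2 fold change was -0.44 (standard error 0.34, 95% interval -1.24 to 0.36, edgeR adjusted p = 0.803), with -0.42 within set 1 and -0.084 within set 2. Rxrg (ENSMUSG00000015843, chromosome 1 from 167598384 to 167639623, plus strand), the RXR known from muscle and brain, had 0 counts in 5 libraries and 1 count in RA 3. It fell below the filter and was not tested, and a count of 0 allows up to 0.160 to 0.210 CPM in a library.

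Among the corepressors, Ncor1 (ENSMUSG00000018501, chromosome 11 from 62316426 to 62458541, minus strand) encodes the scaffold that holds the HDAC3 complex on unliganded receptors. It stood at 271, 265 and 275 CPM in the controls and at 246, 312 and 271 CPM after RA. RA 1 lay below the narrow range of the controls, RA 2 above it and RA 3 inside it. The log2 fold change was 0.034 (standard error 0.13, edgeR adjusted p = 0.950), and its 95% interval ran from -0.27 to 0.34.

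Nrip1 (ENSMUSG00000048490, chromosome 16 from 76287400 to 76373827, minus strand) encodes the ligand-recruited corepressor RIP140. Its values were 41.1, 40.4 and 46.6 CPM in controls 1 to 3 and 70.9, 81.0 and 58.1 CPM in RA libraries 1 to 3. All RA libraries lay above all controls, with RA 3 the nearest to them. The mean went from 42.7 ± 3.36 to 70.0 ± 11.5 CPM (SD, n = 3), a 1.64-fold difference with a log2 fold change of 0.71 (standard error 0.15, 95% interval 0.35 to 1.08). The adjusted p was 0.355 with edgeR's quasi-likelihood test and 0.0724 under the set covariate, whereas DESeq2 gave 0.0158. Within the sets the log2 fold change was 0.91 and 0.41.

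**Figure D2:**
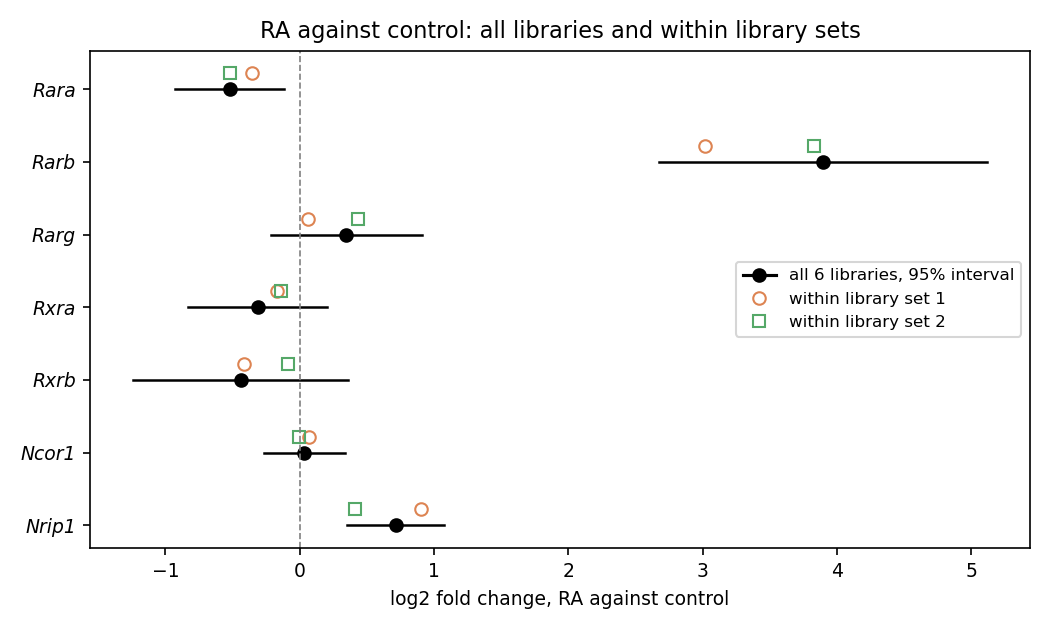
Log2 fold change of RA against control for the 7 tested members, with filled points and lines for the fit over all 6 libraries and its 95% interval, open circles for library set 1 and open squares for library set 2. The intervals of Rarb, Nrip1 and Rara lie off 0, and those of the other members include it.

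Levels were compared between genes as TPM, in which counts are divided by the exonic length of each gene and scaled to a common total. In control BMSCs the order of mean TPM was Rxra (92.0 ± 15.0), Ncor1 (74.0 ± 1.07), Rxrb (57.2 ± 11.3), Rarg (15.1 ± 3.79), Rara (14.3 ± 1.95), Nrip1 (13.1 ± 0.840) and Rarb (0.250 ± 0.202; SD, n = 3). Neighbours from Rarg to Nrip1 overlapped in TPM, and the other neighbours did not. After RA the order was Ncor1 (76.0 ± 6.40), Rxra (74.9 ± 17.9), Rxrb (42.8 ± 18.3), Nrip1 (21.6 ± 3.38), Rarg (19.4 ± 5.17), Rara (10.0 ± 0.926) and Rarb (3.93 ± 0.979). Ncor1 and Rxra overlapped, as did Rxra and Rxrb, and Nrip1 and Rarg. Rarb was still the lowest of the tested receptors in TPM after RA. Its exonic length includes the 34.1% shared with Top2b, and if reads there were left out of its count, its TPM is too low.

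The makeup of the RAR genes was expressed as each gene's share of their summed counts per kilobase. Rarb took 0.649%, 1.47% and 0.319% of the RAR sum in controls 1 to 3 and 12.1%, 13.8% and 9.54% in RA libraries 1 to 3. Rara took 58.3%, 39.5% and 48.2% in the controls and 26.1%, 32.0% and 33.7% after RA. Both shares separated the groups in full, upward for Rarb and downward for Rara. They use the same counts as above, with the same limits from the filter and from the part of Rarb shared with Top2b. The share of Rarg, 50.5 ± 9.03% in the controls and 57.6 ± 3.86% after RA (SD, n = 3), overlapped between the groups. The summed RAR level lay between 28.2 and 32.4 TPM in the controls and between 28.0 and 40.7 TPM after RA, so these overlapped as well. Among the RXRs, Rxra made up 61.8 ± 1.29% in the controls and 64.6 ± 4.92% after RA, nearly all of the rest being Rxrb.

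**Figure D3:**
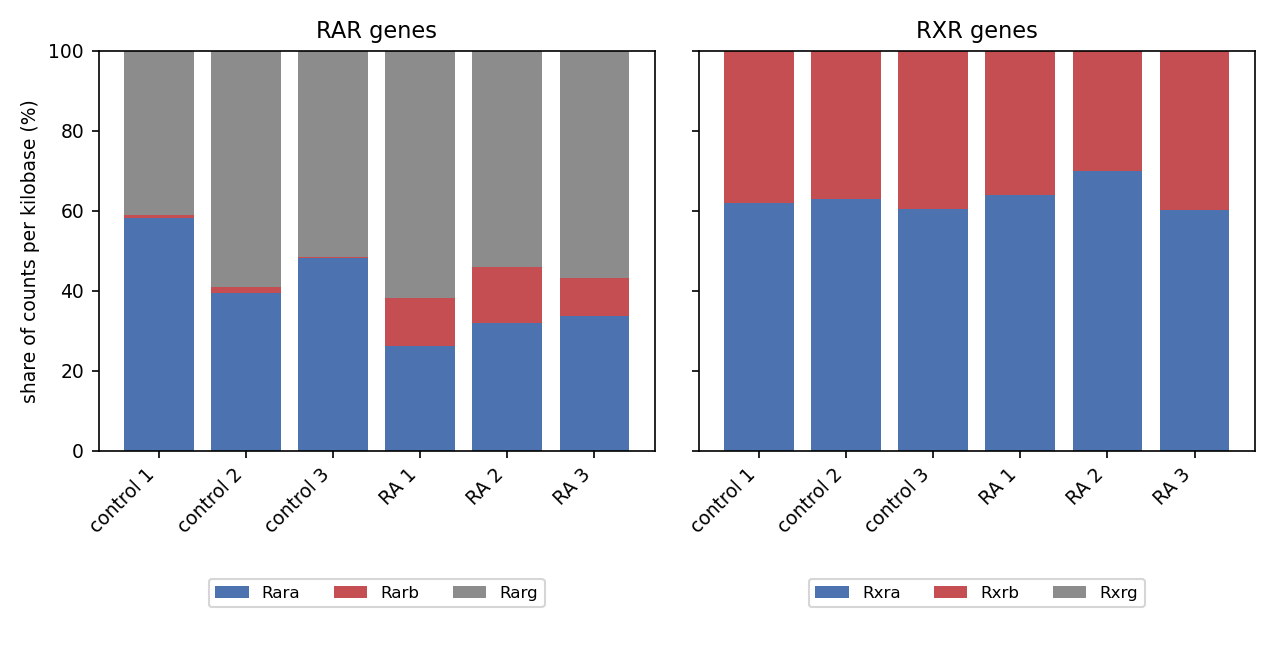
Share (%) of each RAR gene (left) and each RXR gene (right) in the summed counts per kilobase of its family, in each library. Rarb fills between 9.54% and 13.8% of the RAR sum in RA libraries and at most 1.47% in controls, and Rxra fills between 60.2% and 69.9% of the RXR sum in every library, highest in RA 2.

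Ratios between members within a library, which do not depend on the scaling between libraries, were compared with a two-sided exact permutation test. With 3 libraries against 3 this test cannot give a p below 0.10. The log2 ratio of Rarb to Rara was -6.49, -4.74 and -7.24 in the controls and -1.10, -1.22 and -1.82 after RA, a difference of 4.78 that was 3.59 within set 1, 5.04 within set 2 and 5.48 without control 2. The log2 ratio of Nrip1 to Ncor1 was -2.56, -2.55 and -2.40 in the controls and -1.63, -1.78 and -2.06 after RA, a difference of 0.68 (0.84 and 0.42 within the sets). These 2 ratios and that of Rarg to Rara (difference 0.86, with 0.42 and 0.96 within the sets) were higher in every RA library than in every control (exact p = 0.10 each, 0.167 after adjustment over the 5 ratios). The place of Rarb above the controls was largely set by the filter, so its ratio to Rara is a description only. All 3 ratios use the counts already compared above and are no separate support. Summed RAR to summed RXR (difference 0.53, with 0.35 and 0.25 within the sets, exact p = 0.20) and Rxrb to Rxra (difference -0.19, exact p = 0.50) overlapped between the groups, and the latter was 0.058 within library set 2.

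**Figure D4:**
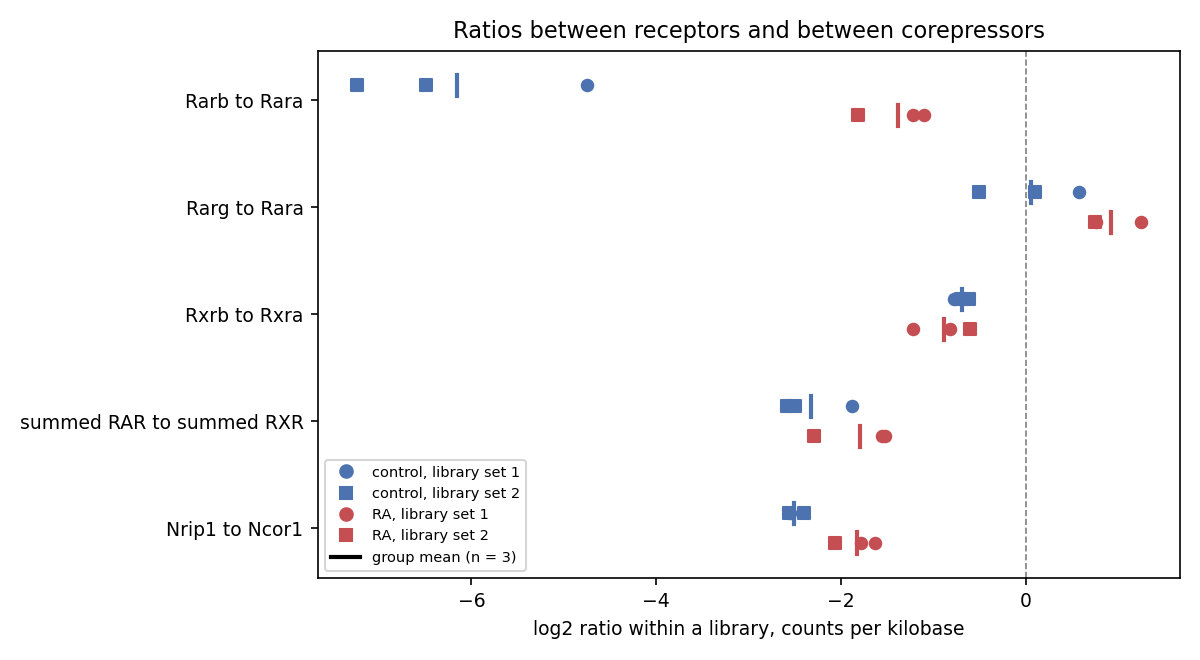
Log2 ratio of counts per kilobase within each library for the 5 pairs, blue for control and red for RA, circles for library set 1, squares for set 2, and bars for group means. The ratio of Rarb to Rara separates the groups by a mean of 4.78, while the ratio of Rxrb to Rxra overlaps.

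Of 14 other genes of the corepressor complexes, all tested, none was called, 9 were higher and 5 lower, and the median log2 fold change was 0.027 beside -0.018 for all genes tested. Hdac7, a class II deacetylase, had means of 25.7 and 17.9 CPM (log2 fold change -0.52, 95% interval -0.95 to -0.088), and Cops2, which binds thyroid and retinoid receptors, of 83.9 and 106 CPM (0.33), both with an edgeR adjusted p of 0.795. Tnip1, whose product can bind liganded RARs, had a log2 fold change of -0.23 (edgeR adjusted p = 0.795).

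The coactivators that replace the corepressors on liganded receptors gave no call among 15 tested of 16, with 6 higher, 9 lower and a median of -0.018. Trim24, a cofactor of liganded RARs, had a log2 fold change of 0.25, Zfp423, a zinc finger protein that takes part in RA-driven transcription, of -0.25, and Ncoa6 of 0.10 (edgeR adjusted p between 0.795 and 0.852). Of 13 other partners of RXR, 9 were tested and none was called, with a median of -0.23. Thra, a thyroid hormone receptor, had means of 24.7 and 16.8 CPM (log2 fold change -0.56, with -0.85 and -0.22 within the sets) in control and RA libraries, and Nr4a1, an immediate early receptor gene, of 3.51 and 1.67 CPM (-1.07). Thrb had a log2 fold change of 0.84, which was 1.47 without control 1, and the edgeR adjusted p of all 3 partners was 0.795.

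Of 8 orphan receptors that share direct repeats with RAR and RXR, 6 were tested and none was called by edgeR's quasi-likelihood test. Nr2f1, which encodes COUP-TF1, had 1.12, 1.60 and 0.619 CPM in the controls and 4.06, 2.79 and 4.64 CPM after RA. The groups lay apart, with a log2 fold change of 1.76 and a standard error of 0.39 (adjusted p = 0.391 with edgeR's quasi-likelihood test, 0.0778 under the set covariate, 0.0116 with edgeR's likelihood ratio test and 0.0187 with DESeq2). It was 1.02 within set 1 and 2.31 within set 2. Rora differed by 0.30 and Nr2f6 by -0.61 on the log2 scale (-1.09 within set 1 and -0.15 within set 2) (edgeR adjusted p = 0.795 each).

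Genes of RA handling and response were set beside the members, with 5 of 9 tested, 4 higher and 1 lower. The list was chosen with earlier results of these data known, so its values are a description only. Cyp26b1, which encodes an RA-degrading enzyme, was the only one of the pathway genes called by the main test, at 4.97, 5.96 and 4.68 CPM in the controls and 124, 110 and 87.1 CPM after RA. Its log2 fold change was 4.35 (edgeR adjusted p = 0.00207), and without control 1 it was 4.32 with an adjusted p of 0.0548. Crabp2, which encodes an RA carrier, had a log2 fold change of 2.31 (edgeR adjusted p = 0.294), with 2.73 within set 1 and 1.28 within set 2. Under the set covariate 3 of these genes were called (Cyp26b1, Cyp26a1 and Dhrs3, beside 1.74% of all genes), and with DESeq2 3 were (Cyp26b1, Crabp2 and Cyp26a1, beside 1.01%), all higher after RA, with Cyp26a1 in the test only through its RA libraries. The groups of Dhrs3 overlapped, at 147.5, 102.9 and 160.1 CPM in the controls and 136.5, 160.7 and 216.5 CPM after RA. Its log2 fold change was 0.32 (adjusted p = 0.799 with edgeR's quasi-likelihood test and 0.911 with DESeq2), and 0.12 without RA 3. Cyp26a1, whose promoter is printed above, had 2, 0 and 4 counts in the controls and 32, 26 and 48 after RA, a log2 fold change of 4.03 (edgeR adjusted p = 0.294). With so few control counts, this value was 3.38 without control 2 and 5.00 without control 3.

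**Figure D5:**
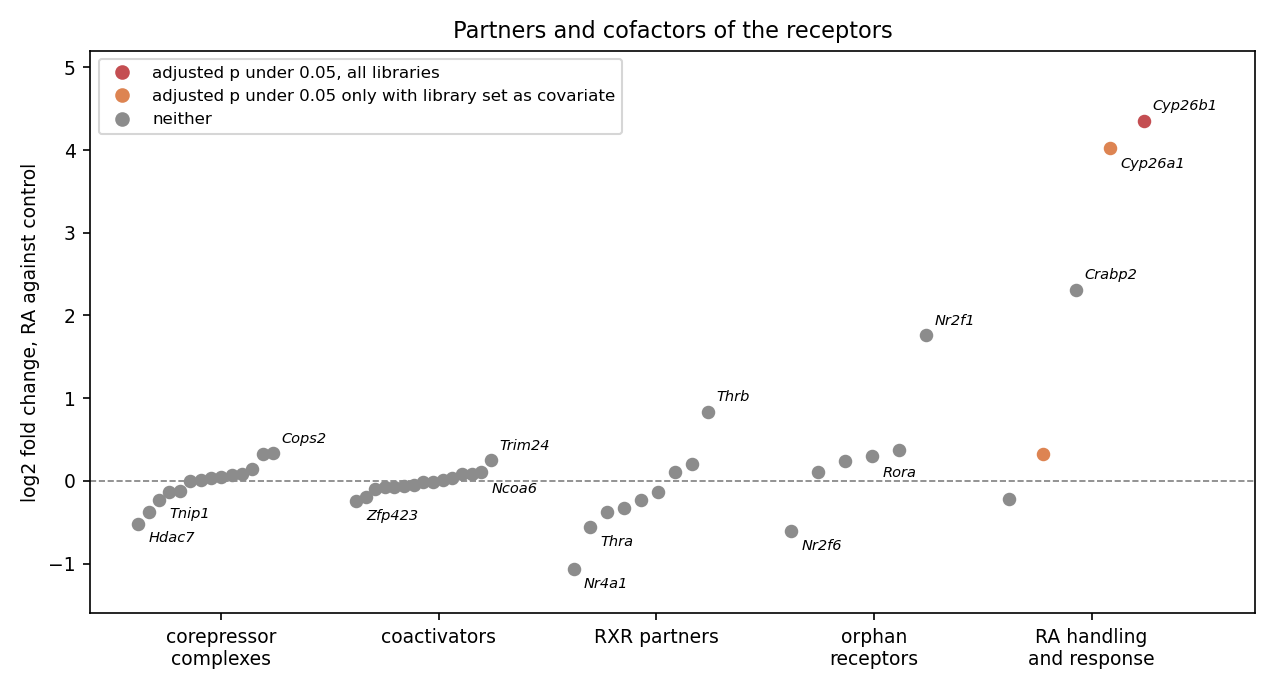
Log2 fold change of RA against control for each tested gene of the 5 lists of partners, cofactors and RA response genes, in order within each list, with up to 3 genes named in each. Corepressor complex genes lie between -0.52 (Hdac7) and 0.33 (Cops2) and coactivator genes between -0.25 and 0.25, and in the edgeR fits shown by colour only genes of RA handling reach an adjusted p under 0.05.

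Genes with a DR5 in a RefSeq promoter, chosen by sequence alone, were 31 in number. Of these 10 were listed and 7 passed the filter, Rarb and Cyp26a1 among them. Both passed it only through the RA libraries, so their differences are no support for a pattern in this group. None of the 7 was called in the main fit (beside 0.0433% of all genes), and the other 5 were not called with the set covariate or DESeq2 (beside 1.74% and 1.01%). With Rarb and Cyp26a1 included, all 7 were higher after RA, with a median log2 fold change of 0.31 beside -0.018 for all genes tested. Whether the group differs from other genes was not tested.

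The genes most like each member over the 6 libraries were found by the root mean square difference of log2 CPM centred on each gene's mean, where a smaller value is more alike. Among the genes reported here, those nearest to Rarb were Cyp26b1 (0.48), Rgs4 (0.50), which encodes a regulator of G protein signalling, and Adamdec1 (0.53), a metalloprotease gene. Cyp26b1 also belonged to the list of RA handling. Nrip1 lay nearest to Gatm (0.065), Ston2 (0.082) and Plagl1 (0.093), and Rara to Fzd5 (0.041), Prr3 (0.080) and Lrig1 (0.085). The nearest to Rarg were Aifm2, Hilpda and Cd1d1 (0.0970 to 0.0996), and to Rxra AI837181, Eaf1 and Socs7 (0.024 to 0.029). Rxrb was nearest to Trpm4, Klhdc8b and Znrf1 (0.050 to 0.061), and Ncor1 to Tab2, Kcmf1 and Stk24 (0.019 to 0.023). A gene that varies little has many close neighbours, so the distances of different members are not comparable.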

How the data were processed

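RNA was sequenced from 3 control and 3 RA libraries, grouped by their labels. The authors deposited raw read counts for each gene in a separate table per library, without normalization. The submitters' processing notes name Bowtie2 2.2.3 and the build mm10. The counting program, its annotation and its strand setting are not given in the sources used here. Exonic lengths and coordinates came from GENCODE M21 (GRCm38), where all 25722 identifiers were found. Counts were analysed in R 4.3.3 with edgeR 4.0.16 (TMM scaling, filterByExpr, quasi-likelihood F test, Benjamini-Hochberg adjustment over 13842 genes, no covariate). CPM used TMM-scaled library totals, and log2 CPM a prior count of 2. The standard error was the absolute log2 fold change over the square root of F. The intervals of log2 fold changes were built from that standard error. The exact interval for the summed counts of Rarb and the floors of counts cover counting error only. Alternatives were DESeq2 1.42.0, the likelihood ratio test, other scalings, filters and thresholds, each library left out, a replicate block and the library set as a covariate.

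The members and gene lists were chosen with earlier results of these data known. The genes named were the members, Cyp26b1, the called genes of each list or else the 3 with the smallest unadjusted p, and the 3 genes most like each member. Some items are not reported here, and the lists, ratios and nearest genes leave them out. Top2b was added for its overlap with Rarb and Dhrs3, Lepr and Ly6a as genes called under a covariate, and Col1a1, Thy1, Nt5e, Lyz2 and Adgre1 from the markers for their high or low levels, after values were seen. RefSeq promoters came from GRCm38.p6.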

Additional observations from a re-analysis of the deposited data

How the results depend on the processing

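No member was called in the main fit, nor with any library left out (0 to 0), the replicate block, other scalings, at least 10 counts in every library, a 1.5-fold threshold or an adjusted p under 0.1. The number called was 1 under the set covariate, 2 with DESeq2, 2 with the likelihood ratio test (0.968% of all genes), 1 without a filter (0.0778%) and 3 at an unadjusted p under 0.05, and the cause was not tested. Of 49 genes tested in the pathway lists, 1 was called in the main fit (0.0433% of all genes), 3 with the covariate (1.74%), 4 with DESeq2 (1.01%), 4 with the likelihood ratio test (0.968%), 7 at an unadjusted p (5.25%), and 0 (without control 1) to 1 with a library left out. With the replicate number as a block, 0 members and 1 gene of the lists were called, and Rarb had an edgeR adjusted p of 0.202. After subtracting group means, libraries sharing a number correlated across genes at -0.51, 0.343 and 0.572 for numbers 1 to 3, so the numbers were not taken as pairs. Directions turned for Ncor1 (-0.0083 within set 2, and between -0.061 and 0.13 with a library left out, lowest without RA 2), Ncoa6 (-0.0091 within set 2, and between -0.032 and 0.21, lowest without RA 2) and the ratio of Rxrb to Rxra (0.058 within set 2, and between -0.33 and -0.017 with a library left out). Apart from markers and nearest genes, for which not every alternative was run, the other named log2 fold changes and ratios kept their direction under every alternative run. With at least 10 counts in every library, Rarb, Thrb, Nr2f1 and Cyp26a1 fell out of the test. With controls at 2 to 13 counts, the size of the Rarb difference is limited by counting in those libraries.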
